A study of Caenorhabditis elegans with 6 samples.

Results

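The WT day 1 adult transcriptome of *C. elegans* was described from the 3 libraries that the sample labels call WT, out of 6 libraries in the series. The label was the rule by which the 3 libraries were taken. Each was made from the whole bodies of untreated WT worms that had grown from egg to adult day 1 on plates with concentrated OP50 bacteria. The other 3 libraries carry the label *fmo-4* OE, for worms that overexpress the flavin-containing monooxygenase gene *fmo-4*, and these worms had the same age, food and lack of treatment. The labels do not say whether the ubiquitous or the hypodermal overexpression strain was sequenced. The questions were which genes and tissues dominated the WT messenger RNA, how stable the order of genes was between the 3 replicates, and which genes varied most among them.

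The adult *C. elegans* hermaphrodite is a small animal with a fixed set of somatic cells and a large gonad. On adult day 1 the gonad makes oocytes and early embryos, which need stores of ribosomes, messenger RNA and yolk. Yolk proteins (vitellogenins) are made in the intestine and taken up by oocytes. Sperm are made before adulthood and then stored, and the collagen cuticle is laid down by the epidermis at each molt.

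The unit of level was TPM, the read count of a gene divided by its deposited length and scaled so that all genes of a library add up to 1000000. It compares genes within a library per length. The unit for differences between libraries was the read count normalised for library size with TMM factors, and its log2 (log2 CPM). Fold ranges were taken from log2 CPM with a prior count of 2. For genes with few reads they are therefore smaller than the plain ratio of normalised counts. Mean levels are given ± SD over the 3 WT libraries. TPM values are shares of a library, so where some genes take more, the others fall. Genes under 500 bases held 9.38%, 9.51% and 14.3% of transcripts in WT replicates 1, 2 and 3. Differences in TPM between replicates include this shift. The labels name biological replicates and no batch or sequencing date.

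Reads on genes numbered 17576872, 22675429 and 21336047 in replicates 1 to 3 labelled *fmo-4* OE, against 20020901, 17768502 and 24943501 in WT replicates 1 to 3. In WT, 17094 to 17845 of the 20138 genes in the table had at least 1 read. The targeted gene *fmo-4* had 372, 476 and 368 reads in libraries with the *fmo-4* OE label, against 522, 397 and 525 reads in WT. It was therefore not higher in libraries with the *fmo-4* OE label (log2 fold change -0.24, SE 0.18, edgeR quasi-likelihood adjusted p = 0.947). In contrast, 3 cytochrome P450 genes, picked here after their values were seen, separated the labels fully. The gene *cyp-34A8* had 0 reads in each library with the *fmo-4* OE label, against 305, 340 and 328 reads in WT. The gene *cyp-34A9* had 0 reads in each library with the *fmo-4* OE label, against 227, 246 and 304 in WT, and *cyp-35A5* had 0 in each, against 142, 115 and 132 in WT.

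WT replicate 3 stood apart from the other WT libraries. Genes shorter than 500 bases took 2.62%, 4.34% and 4.06% of reads in replicates 1 to 3 labelled *fmo-4* OE, against 2.60%, 2.68% and 4.48% in WT replicates 1 to 3. Across 9979 genes with a mean WT normalised count of at least 50, the Pearson correlation of log2 CPM was 0.969 between WT replicates 1 and 2, 0.958 between replicates 1 and 3, and 0.951 between replicates 2 and 3. These correlations are across genes, which are not independent. For each WT library the closest library of the series carried the other label. WT replicates 1 and 2 were closest to replicate 1 labelled *fmo-4* OE, at 0.971 and 0.987, and WT replicate 3 was closest to replicate 2 labelled *fmo-4* OE, at 0.974.

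The WT transcriptome was concentrated in few genes. The 10 most abundant genes held 5.86% ± 0.66 of transcripts and the 25 most abundant held 11.7% ± 0.86. The 100 most abundant held 29.5% ± 2.18, with 28.3%, 28.3% and 32.1% in WT replicates 1, 2 and 3, and 28.3% without replicate 3. At the mean WT level, 429 genes held 50% of transcripts and 4225 genes held 90%. A mean level of at least 1 TPM was reached by 12721 genes, and 149 genes reached 1000 TPM.

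Genes for translation led the order. The most abundant gene in all 3 WT libraries was *eef-1A.1* on chromosome III, which encodes the elongation factor that brings aminoacyl-tRNA to the ribosome, at 9471, 9762 and 8724 TPM. It was followed by Y37E3.8 on chromosome I, which RefSeq names *rpl-27A*, at 6824 ± 1134 TPM. The small subunit gene *rps-25* on chromosome IV stood at rank 3, with 6449, 5751 and 5146 TPM. These were the only genes in the top 10 of every WT library. The next places were taken by *rpl-32* with 5459 ± 1266 TPM, the stalk protein gene *rla-0* with 4966 ± 2082 TPM and *rps-8* with 4905 ± 839 TPM.

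A list of 82 cytosolic ribosomal protein genes supplied 18 of the 25 most abundant genes and 59 of the 100 most abundant. Both counts are of this list, which held 18.3%, 17.9% and 23.7% of transcripts in WT replicates 1, 2 and 3. It left out Y37E3.8 and the genes C37A2.7 and W01D2.1, at 2362 and 1787 TPM, which RefSeq names *rplp-2.1* and *rpl-37.1*. The ubiquitin and ribosomal L40 fusion gene *ubq-2* stood 12th, at 4337, 4445 and 3617 TPM, and was also outside the list. After normalisation for library size its range was only 1.02-fold. The other top 25 genes outside the ribosome were *vit-2* and *vit-6* (yolk), *ndk-1* (nucleoside diphosphate kinase, 4152 ± 886 TPM) and *cey-2*, a Y-box RNA-binding protein gene of the germline. The 6 translation elongation factor genes held 1.59% ± 0.08 of transcripts, with *eef-1G* at 2309 ± 295 TPM and *eef-2* at 2196 ± 161 TPM after *eef-1A.1*.

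**Figure D1:**
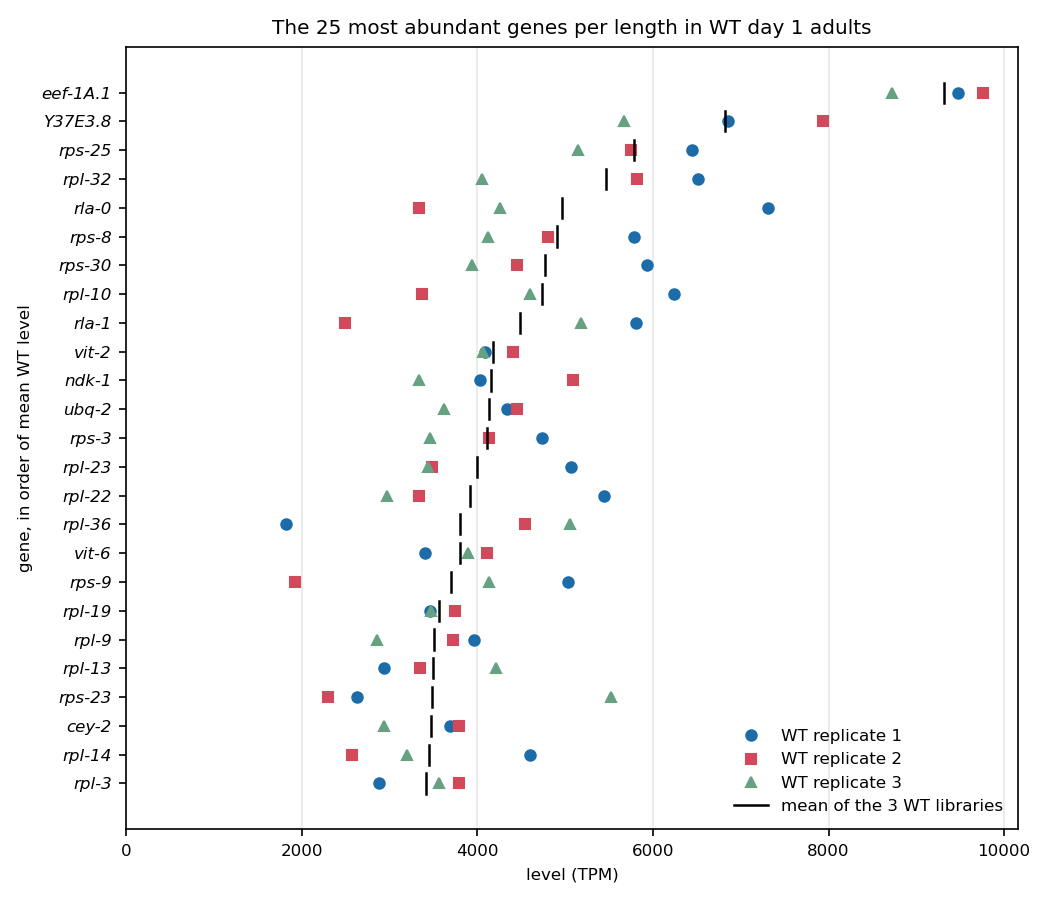
Level of the 25 genes with the highest mean WT level, in TPM on a linear axis. Each symbol is 1 WT library and the bar is the mean of the 3. *eef-1A.1* led in every library, *vit-2* and *rpl-19* had close symbols, and *rla-0*, *rla-1*, *rpl-36*, *rps-9* and *rps-23* were spread widely.

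Several of these abundant genes differed widely between WT libraries. The stalk protein gene *rla-0* had 7311 TPM in WT replicate 1, against 3334 and 4253 TPM in replicates 2 and 3. The gene *rla-1*, another stalk protein, had 5801 and 5178 TPM in replicates 1 and 3 and 2485 TPM in replicate 2. *rps-9* was also low in replicate 2, with 5036, 1924 and 4126 TPM. *rpl-36* went the other way and was low in replicate 1, with 1814, 4545 and 5050 TPM. By contrast *vit-2* had 4081, 4400 and 4061 TPM and *rpl-19* had 3557 ± 166 TPM. The 2 genes just inside the top 25 were *rpl-14* with 3452 ± 1037 TPM and *rpl-3* with 3413 ± 475 TPM, and the next 2 were *ant-1.1* with 3411 ± 291 TPM and *rpl-11.1* with 3399 ± 267 TPM, so that the edge of this set lies within the spread between replicates.

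The spread of the ribosomal protein genes had a direction. Of 81 genes with enough reads, 66 were highest in WT replicate 3 after normalisation for library size, 13 in replicate 1 and 2 in replicate 2. Shorter genes deviated further. The 23 genes under 500 bases had median deviations from the WT mean of -0.64, -0.44 and 0.96 on the log2 scale in WT replicates 1, 2 and 3, and the 58 longer genes had -0.29, -0.13 and 0.41. A range of at least 4-fold between the highest and the lowest WT library was found for 12 of the 81 genes, against 3.39% of all 9979 genes. Under 500 bases it was found for 7 of the 23 genes. This is near the share of all genes of that length, 30.8% under 300 bases and 29.8% from 300 to under 500 bases. It was found for 5 of the 58 longer genes, against 4.29% or less in each longer length class of all genes. These counts and directions are descriptions of these 3 libraries.

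The vitellogenin genes, which encode yolk, had the highest share of transcripts per gene among the tissue lists. The 6 genes held 1.5%, 1.68% and 1.35% of transcripts in WT replicates 1, 2 and 3. As they are long, they took 5.5% of the reads. *vit-6*, which stood 17th, had 3404, 4112 and 3887 TPM. *vit-5* had 3516, 3759 and 2539 TPM and *vit-3* had 1528, 1805 and 1003 TPM. *vit-3*, *vit-4* and *vit-5* are near-identical in sequence, and how reads were divided between them was not tested, so their single values are uncertain. None of the 6 genes had a 2-fold range among WT libraries, against 16.1% of all genes.

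Other genes of the intestine varied more. The 25 intestinal genes held 0.45%, 0.52% and 0.69% of transcripts. The aspartic protease gene *asp-1* led them with 1193, 1208 and 1571 TPM, followed by the cathepsin B-like gene *cpr-6* with 939, 1238 and 878 TPM. *asp-6* had 388, 585 and 993 TPM and *cpr-1* had 307, 350 and 1018 TPM, both highest in WT replicate 3. In whole worms, fewer cells of a type and less RNA per cell cannot be told apart, here and for every tissue described.

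Genes of the oocyte and eggshell formed the largest germline group. The 33 genes held 2.27%, 2.2% and 1.94% of transcripts, and 2 of them had a 2-fold range, against 16.1% of all genes. *cey-2* had 3689, 3786 and 2937 TPM, and after normalisation for library size its range was only 1.05-fold. The eggshell chondroitin proteoglycan gene *cpg-2* had 1726, 1838 and 1942 TPM. *cey-3*, a close relative of *cey-2*, had 1425 ± 141 TPM and *pos-1*, which encodes an embryonic cell fate RNA-binding protein, had 1200 ± 207 TPM. The 28 general germline genes held 0.73% ± 0.08 and had a median SD of log2 CPM of 0.146, against 0.255 over all 9979 genes. They were led by the RNA helicase gene *cgh-1* with 1949 ± 332 TPM, the RNA granule gene *car-1* with 1269 ± 88.4 TPM and the translational repressor gene *gld-1* with 976 ± 176 TPM. None of these 28 genes had a 2-fold range, against 16.1% of all genes.

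Sperm transcripts behaved otherwise. The 33 major sperm protein (msp) genes, which encode the cytoskeleton of nematode sperm, held 0.162% and 0.123% of transcripts in WT replicates 1 and 3, against 0.0308% in replicate 2, a 5.25-fold range. *msp-31* had 139, 23.6 and 103.6 TPM in replicates 1, 2 and 3. *msp-81* had 118, 30 and 69.1 TPM, *msp-76* had 105, 38.2 and 70.6 TPM, and *msp-40* had 117, 22.3 and 62.0 TPM. All 4 were lowest in WT replicate 2. msp genes are near-identical copies, so values of single genes are uncertain and the sum is the safer measure. The 42 other spermatogenesis genes held 0.0372%, 0.0186% and 0.0461%. Some genes of the list were not low in replicate 2. *spe-39*, which is also used outside sperm, had 96.6, 102 and 59.0 TPM, and the sperm transcription factor gene *spe-44* had 25.8, 27.3 and 17.1 TPM.

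The cuticle collagens were the second largest list, with 2.34%, 2.92% and 3.30% of transcripts. Only 79 of the 164 collagen genes reached a mean of 1 TPM. *col-140* led with 2428, 3002 and 3026 TPM, followed by *col-20* with 3167, 2270 and 2406 TPM, *col-124* with 2484, 2436 and 2645 TPM and *col-119* with 1467, 2375 and 2691 TPM. 7 collagen genes were among the 100 most abundant. Of the 49 with enough reads, 37 had a 2-fold range (75.5%, against 16.1% of all genes). Genes of the epidermal matrix and the molt were low in level. The list of 15 genes held 0.0104%, 0.0168% and 0.00725% of transcripts. The molting regulator *nhr-23* had 47.7, 39.5 and 26.5 TPM. The matrix protein genes *noah-1* and *noah-2* were highest in WT replicate 2, with 8.54, 32.7 and 5.34 TPM and with 8.83, 28.5 and 5.84 TPM.

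The body wall muscle list held 0.94%, 1.03% and 0.89% of transcripts over 33 genes. The troponin C gene *pat-10* had 2116, 1540 and 1409 TPM, the actin genes *act-2* and *act-4* had 1521 ± 321 and 882 ± 68.6 TPM, and the troponin I gene *unc-27* had 669 ± 103 TPM. Actin genes are close copies, and their single values carry the same doubt as those of msp genes. The lists for the pharynx and neurons held far smaller shares, which depend on the genes chosen and do not measure whole tissues. The 13 pharyngeal genes held 0.0151% ± 0.005, led by the troponin I gene *tni-4* with 51.7, 60.1 and 43.3 TPM. The 34 neuronal genes held 0.1%, 0.0947% and 0.0728%. The synaptobrevin gene *snb-1* led them with 338 ± 62.5 TPM, and *tdc-1* and *tbh-1*, which make tyramine and octopamine, had 174 ± 44 and 157 ± 17.3 TPM. Expression of these genes outside neurons was not tested, so the values are of whole worms and not of neurons alone. The 64 flp and ins peptide genes held 0.0404% ± 0.006, with *flp-28* at 42.4, 46.3 and 51.6 TPM, and *flp-1*, *flp-22* and *flp-10* between 22 and 25.5 TPM on average.

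The lists for small tissues held small shares. Each share is a sum over few chosen genes and does not measure all the messenger RNA of a tissue. The gonadal sheath and spermatheca list held 0.029% ± 0.005, with the innexin gene *inx-8* at 148 ± 30.8 TPM and the filamin gene *fln-1* at 106, 99.5 and 88.5 TPM. In the excretory canal list, the aquaporin gene *aqp-8* had 90.9, 79.4 and 46.6 TPM and *exc-4* had 57.6, 53.6 and 45.1 TPM. The coelomocyte genes *cup-4* and *unc-122* had 3.15 ± 1.08 and 0.64 ± 0.13 TPM. In the glial list *fig-1* had 1.38 ± 0.40 TPM, and *hlh-17*, *ptr-10* and *daf-6* had mean levels under 1 TPM. The 7 genes of male neurons and tail held 0.00018% of transcripts and none reached 1 TPM. *mab-3* had 0.66 ± 0.50 TPM and *cwp-4* had 0.44 ± 0.45 TPM. Of 46 early zygotic genes, 20 reached 1 TPM, and *sdz-27* led with 111, 90.9 and 75.6 TPM. The other named genes of this list were low, with *ref-1* at 6.47 ± 2.96 TPM and *hnd-1* at 5.28 ± 2.00 TPM.

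Energy metabolism held several abundant genes. The 12 protein-coding genes of the mitochondrial genome held 1.69%, 1.46% and 0.91% of transcripts in WT replicates 1, 2 and 3. MTCE.26 had 3865, 2696 and 1630 TPM and MTCE.31 had 2859, 2134 and 1210 TPM, both lowest in replicate 3, whereas COX3 had 2031, 2122 and 1932 TPM. The 37 nuclear genes of the respiratory chain held 1.36%, 1.41% and 1.64%, and were highest in replicate 3. The ATP synthase genes *atp-2* and *atp-1* had 2021 ± 331 and 1306 ± 80.0 TPM. The 19 glycolysis genes held 0.48% ± 0.07, led by the aldolase gene *aldo-2* with 985, 971 and 823 TPM and the enolase gene *enol-1* with 723 ± 128 TPM. No glycolysis gene had a 2-fold range among the 18 with enough reads, against 16.1% of all genes.

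Chaperones held 1.09%, 1.11% and 1.04% of transcripts. *hsp-90* had 2817, 2162 and 1784 TPM, the HSP70 gene *hsp-1* had 1931, 2403 and 2148 TPM, and the small heat shock gene *sip-1*, known from embryos, had 1121, 1493 and 2335 TPM. Lipid-binding and transthyretin-like proteins held 0.65%, 0.87% and 1.04%. The fatty acid and retinol binding gene *far-2* had 1819, 2786 and 3572 TPM and *far-1* had 272, 440 and 909 TPM, and both were lowest in WT replicate 1 and highest in replicate 3. The 233 lysozymes, saposin-like proteins and lectins held 0.79% ± 0.05, and only 94 of them reached 1 TPM. *clec-87* had 1491, 1740 and 1377 TPM and *spp-5* had 830, 1315 and 912 TPM. Histone genes held 0.26% ± 0.05. The leading ones were *his-74* with 563 ± 61.6 TPM and *his-72* with 511 ± 135 TPM, both for replacement histones of the H3.3 kind. Transcripts of replication-dependent histones lack a poly(A) tail in animals, and the 59 histone genes are partly near-identical.

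The 185 xenobiotic enzyme genes held 0.26%, 0.24% and 0.19% of transcripts, led by the glutathione S-transferase genes *gst-1* with 342 ± 63.4 TPM and *gst-7* with 270 ± 40.1 TPM. Of the cytochrome P450 genes, *cyp-35A2* had 127, 95.5 and 104.2 TPM and *cyp-31A2* had 109, 114 and 85.5 TPM. Among the flavin-containing monooxygenases, *fmo-4* had the highest mean, with 18.6, 15.7 and 13.3 TPM, and ranked 6456th of all genes. *fmo-1* had 18.5, 7.78 and 11 TPM, *fmo-5* had 8.29, 11.4 and 10.3 TPM and *fmo-3* had 9.20, 10.6 and 4.69 TPM. The values of *fmo-4* overlapped with those of *fmo-1* and lay above those of *fmo-5* and *fmo-3*, and *fmo-1*, *fmo-5* and *fmo-3* overlapped. *fmo-2* had only 35, 11 and 20 reads.

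**Figure D2:**
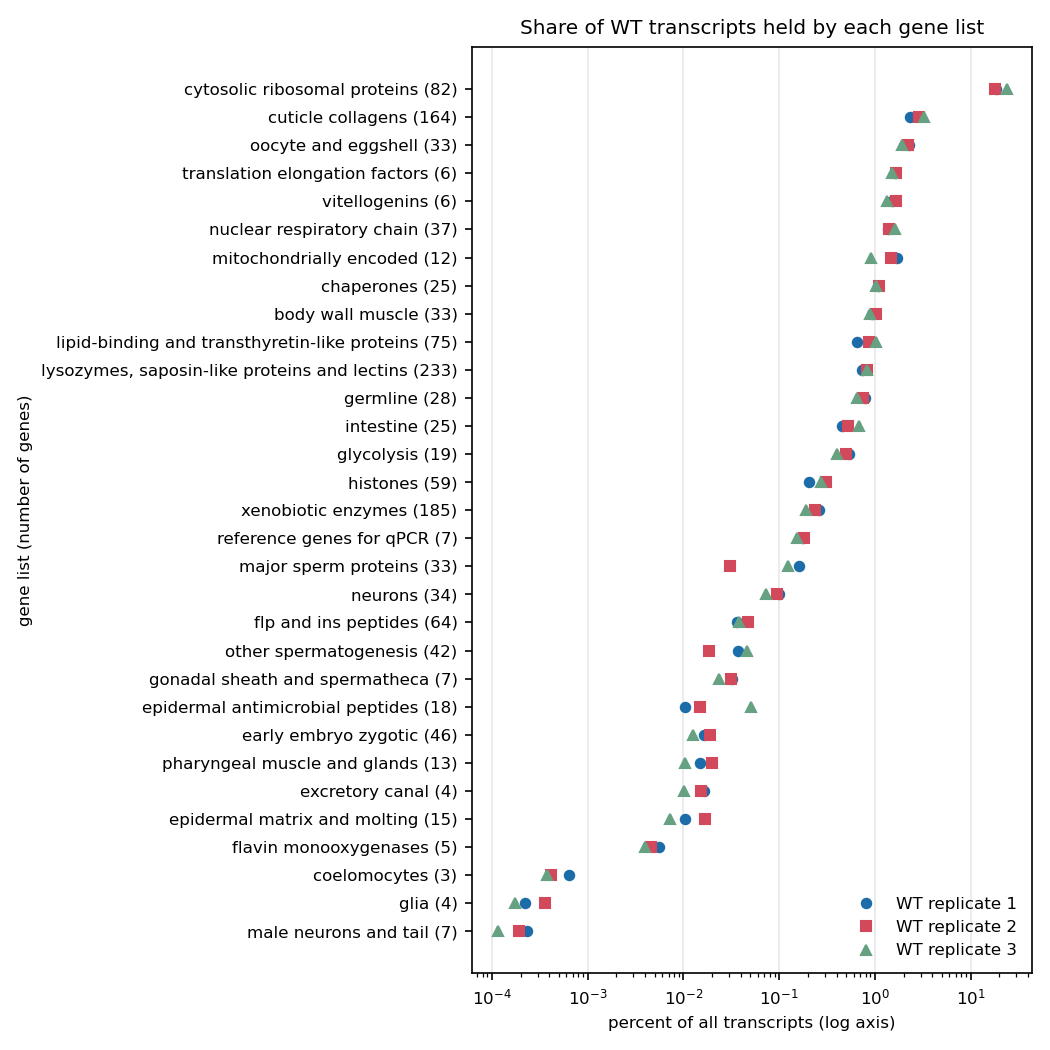
Percent of all transcripts held by each of the 31 gene lists on a log axis, with 1 symbol per WT library and the number of genes in brackets. Ribosomal proteins held about 20%, most lists had close symbols, and major sperm proteins and epidermal antimicrobial peptides had the symbols furthest apart.

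All 31 lists together held 37.4% ± 3.06 of WT transcripts with 1323 genes. Of the 100 most abundant genes, 15 were in no list. They included *ant-1.1* (ADP/ATP translocase), *rack-1* (a ribosome-bound scaffold, 2225 TPM), the cyclophilin gene *cyn-7* (2222 TPM), the translation initiation gene *iff-1* (2027 TPM), *ahcy-1* (S-adenosylhomocysteine hydrolase, 1995 TPM) and the cathepsin L gene *cpl-1* (1919 TPM). These were named after their values were seen. Protein-coding genes held 98.2% ± 0.13 of transcripts. Of the rest, the pseudogene *rpl-41.2* was the most abundant, with 1546, 1759 and 4099 TPM. Its reads may be shared with a near-identical gene, and this was not tested.

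The chromosomes contributed unequally. Protein-coding genes on chromosomes I and III held 22.6% ± 0.07 and 21% ± 0.25 of transcripts, chromosome IV 18.3% ± 0.44, chromosome II 14.4% ± 0.42 and chromosome V 14.2% ± 0.005. Chromosome X held 6.32% ± 0.42, although it had 2606 protein-coding genes, against 2738 on chromosome I. The median level of genes with at least 1 TPM was 8.27 ± 1.21 TPM on chromosome X, 12.9 ± 0.81 TPM on V, 19.3 ± 0.44 TPM on II, 22.8 ± 1.00 TPM on IV, 36.2 ± 1.63 TPM on I and 37.1 ± 1.5 TPM on III. The values of chromosomes I and III overlapped, and each of the others stood outside the range of its neighbours in this order. The leading X-linked genes were *vit-2*, *vit-5*, *col-178* (1858 ± 252 TPM), *col-181* (1787 ± 374 TPM), *vit-3* and *vit-1* (1398 ± 193 TPM).

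The order of genes was broadly kept between replicates and its first places were not. Of the 10 most abundant genes, 3 were shared by all WT libraries, and 17 genes were in the top 10 of at least 1. Of the 25 most abundant, 9 were shared by all. These were *eef-1A.1*, Y37E3.8, *rps-25*, *rpl-32*, *rla-0*, *rps-8*, *rps-30*, *rpl-10* and *vit-2*. The overlap was 75 of 100, 392 of 500 and 793 of 1000. WT replicates 1 and 2 shared 93 of their top 100, against 78 for replicates 1 and 3 and 81 for replicates 2 and 3. The median range of rank was 37.5 places for the first 100 genes, 114 for the next 400, 292 for the next 500 and 775 for the 4000 after them. The largest shift in the first 100 was that of *rpl-36.A*, which moved over 362 places and had 377, 565 and 4357 TPM in WT replicates 1, 2 and 3. In the next 400 genes it was that of *dct-16*, which ranked 1106th, 2051st and 97th.

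The spread after normalisation was measured for 9979 genes. The minimum of 50 was set on the mean of the WT libraries, so a gene could pass through 1 high library. For genes with few reads a wide range is then partly fixed by the minimum. The median SD of log2 CPM was 0.255, and it was 0.354 in the 100 most abundant genes, which had a median of 33490 reads. A range of at least 2-fold was found for 1605 genes (16.1%) and of at least 4-fold for 338 genes (3.39%). The range of a gene cannot grow when a library is left out, so a lower count follows from the measure. The count of 338 genes was 234 without WT replicate 1, 170 without replicate 2 and 129 without replicate 3. In the libraries with the *fmo-4* OE label, 270 of 10119 genes (2.67%) had a 4-fold range. The biological coefficient of variation estimated with edgeR was 0.250 for the libraries with the *fmo-4* OE label and 0.290 for WT, where it was 0.245 without WT replicate 3. Of the 338 genes, 146 (43.2%) also had a 4-fold range among the libraries with the *fmo-4* OE label. By log2 CPM with prior count 2, Y65B4A.10 and *cylc-1* stood just inside the threshold, each with a range of 4.001-fold. Just outside were F41G3.21 and *msp-79* with 3.99-fold and 3.98-fold, whose plain ratios of normalised counts were above 4. These are named only as the edge of the set.

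Gene length moved with the spread. Genes under 500 bases made up 149 of the 338 genes (44.1%), against 498 of 9979 genes (4.99%). A 4-fold range was found for 30.8% of genes under 300 bases and 29.8% of genes from 300 to under 500 bases. The share was 4.29% from 500 to under 1000 bases, 1.47% from 1000 to under 2000 bases and 0.83% from 2000 to under 4000 bases. WT replicate 3 was above the WT mean by a median of 0.59 and 0.67 on the log2 scale in the 2 shortest classes, and below it by a median of -0.11 for genes of 4000 bases or more. The part of gene length in the spread of single genes was not tested.

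**Figure D3:**
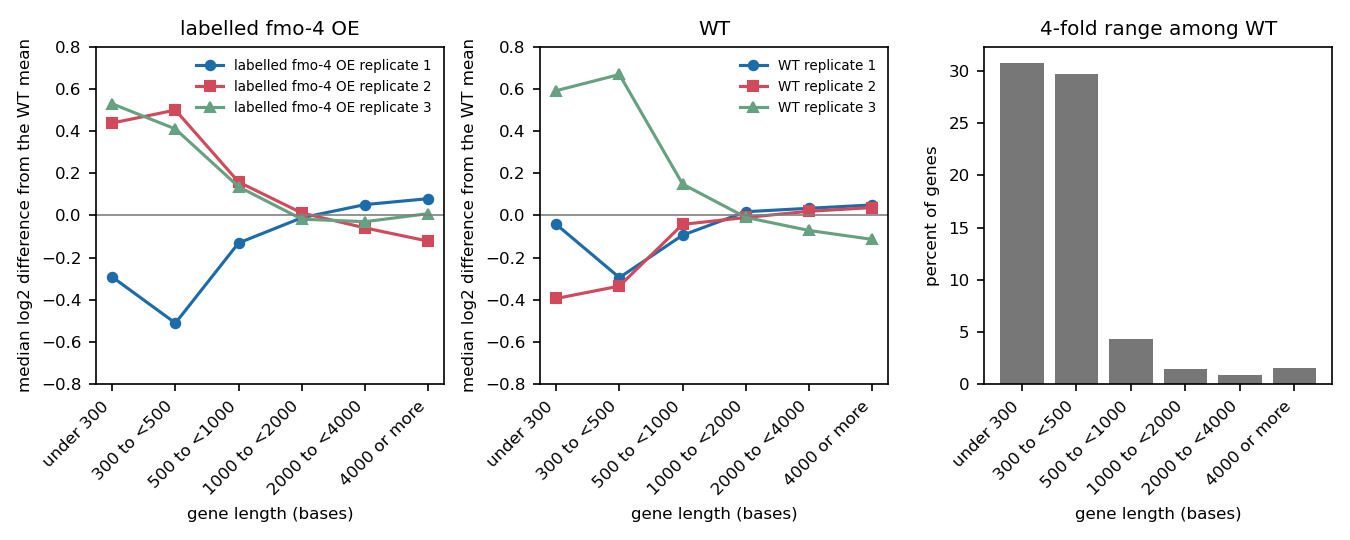
Median log2 difference from the WT mean by class of gene length in libraries with the *fmo-4* OE label (left) and in WT (middle), 1 line per library, and the percent of genes in each class with a 4-fold range among WT (right, bars from 0). WT replicate 3 and replicates 2 and 3 labelled *fmo-4* OE lie above 0 for genes under 500 bases, and the other 3 libraries lie below.

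The 338 genes fell into few patterns, set by which WT library stood furthest from the other 2. WT replicate 3 was the high library for 174 genes (51.5%) and WT replicate 2 the low one for 108 (32%). WT replicate 2 was high for 36 genes (10.7%) and WT replicate 1 was low for 15 (4.44%). WT replicate 1 was high for F59A3.5, F56A4.2 and R09E10.6, and WT replicate 3 was low for Y41D4B.36 and B0393.5. The patterns are a description of these libraries, and the genes in them were not chosen by function.

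**Figure D4:**
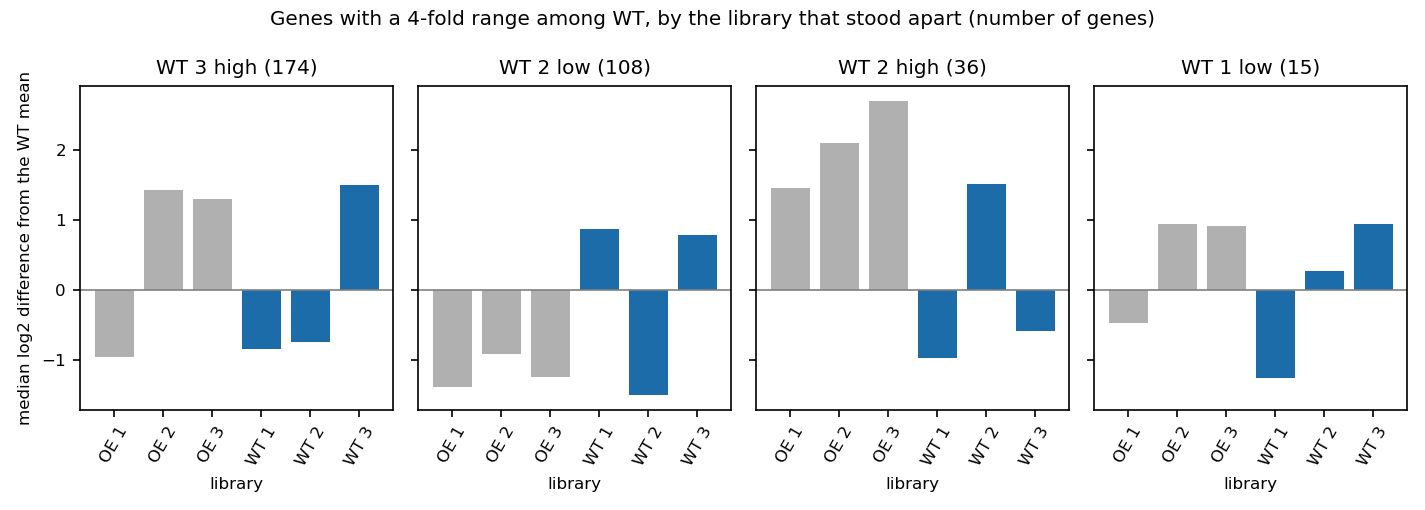
Median log2 difference from the WT mean in each library for the 4 larger patterns among the 338 genes with a 4-fold range in WT, with the libraries with the *fmo-4* OE label (OE 1 to 3, grey) left of WT (WT 1 to 3, blue). The 174 genes high in WT replicate 3 were high in OE 2 and OE 3, and the 108 low in WT replicate 2 were low in all 3 OE libraries. The WT bars follow from how the patterns were made.

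Most of the 20 genes with the largest spread were short genes that were high in WT replicate 3. The *daf-16*/FOXO-controlled gene *dct-16* (chromosome V, 494 bases) had 412, 18727 and 12454 reads in libraries with the *fmo-4* OE label, against 1128, 592 and 19577 reads in WT. Its range among WT was 25.8-fold. The small ribosomal subunit gene *rps-21* (chromosome III, 350 bases) had 800, 19766 and 15673 reads in libraries with the *fmo-4* OE label, against 1371, 1307 and 21241 reads in WT, a 13.5-fold range among WT. In both genes WT replicate 3 was with replicates 2 and 3 labelled *fmo-4* OE, and WT replicates 1 and 2 were with replicate 1 labelled *fmo-4* OE.

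The same split was seen in *romo-1*, whose human counterpart encodes a small mitochondrial membrane protein. It had 44, 1124 and 1082 reads in libraries with the *fmo-4* OE label, against 55, 53 and 1186 reads in WT. *pinn-4*, a member of a family of peptidyl-prolyl isomerases, had 57, 880 and 836 reads in libraries with the *fmo-4* OE label, against 35, 143 and 1230 reads in WT. F43G6.7 on chromosome II had 9, 496 and 350 reads in libraries with the *fmo-4* OE label, against 27, 5 and 440 reads in WT. Y38E10A.24, F53A3.7, Y53F4B.14, C17E7.12, C25H3.17 and the longer gene Y9D1A.1 (1371 bases) followed the same order, with ranges among WT of 15.4-fold to 26.3-fold. So did the non-coding gene C41C4.19, of 71 bases, with 75, 19 and 532 reads in WT.

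The cytochrome c oxidase subunit gene *cox-7C* and the ribosomal gene *rpl-36.A* were also high in WT replicate 3, and *cox-7C* was named after its values were seen. It had 334, 4323 and 3723 reads in libraries with the *fmo-4* OE label, against 358, 377 and 5003 reads in WT. *rpl-36.A* had 1307, 26782 and 21165 reads in libraries with the *fmo-4* OE label, against 1984, 2671 and 32279 reads in WT. In each, the groups overlapped and the split ran across the labels. Among the 174 genes of this pattern, 102 were under 500 bases, against 498 of the 9979 genes with enough reads. Ribosomal protein genes were 11 of the 174, against 81 of the 9979.

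The nspd genes, a nematode-specific family expressed in sperm, were highest in WT replicate 3. Those named here passed the minimum mean of 50 only through that library. *nspd-5* had 3, 35 and 23 reads in libraries with the *fmo-4* OE label, against 7, 0 and 203 reads in WT. *nspd-7* had 1, 35 and 23 reads in libraries with the *fmo-4* OE label, against 3, 3 and 186 reads in WT, and *nspd-1* had 4, 73 and 42 reads there, against 7, 5 and 256 reads in WT. *nspd-2* had 0, 81 and 28 reads in libraries with the *fmo-4* OE label, against 12, 7 and 351 reads in WT. They are close copies of each other and 309 to 353 bases long.

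Antimicrobial peptides of the epidermis varied in the same way. The list of 18 genes held 0.0105%, 0.0151% and 0.0509% of transcripts in WT replicates 1, 2 and 3. 8 of the 9 genes with enough reads had a 4-fold range, against 3.39% of all genes and 29.8% of genes from 300 to under 500 bases. Enough reads was judged on the WT mean, and *nlp-29* passed only through WT replicate 3, with normalised counts of 19, 6.67 and 185. The count of 8 is thus partly fixed by the minimum. *nlp-29*, which is induced by wounding and fungal infection, had 17, 144 and 120 reads in libraries with the *fmo-4* OE label, against 19, 6 and 212 reads in WT. *nlp-33* had 7.08, 10.4 and 83.8 TPM in WT, *nlp-28* had 9.41, 13.8 and 55.5 TPM and *nlp-24* had 42, 72.2 and 172 TPM. The nlp genes stand in clusters of close copies and are 333 to 603 bases long in the examples named here, *nlp-27* included, which had 17, 14.2 and 40.6 TPM. WT replicate 3 was highest in each of these 5 genes.

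**Figure D5:**
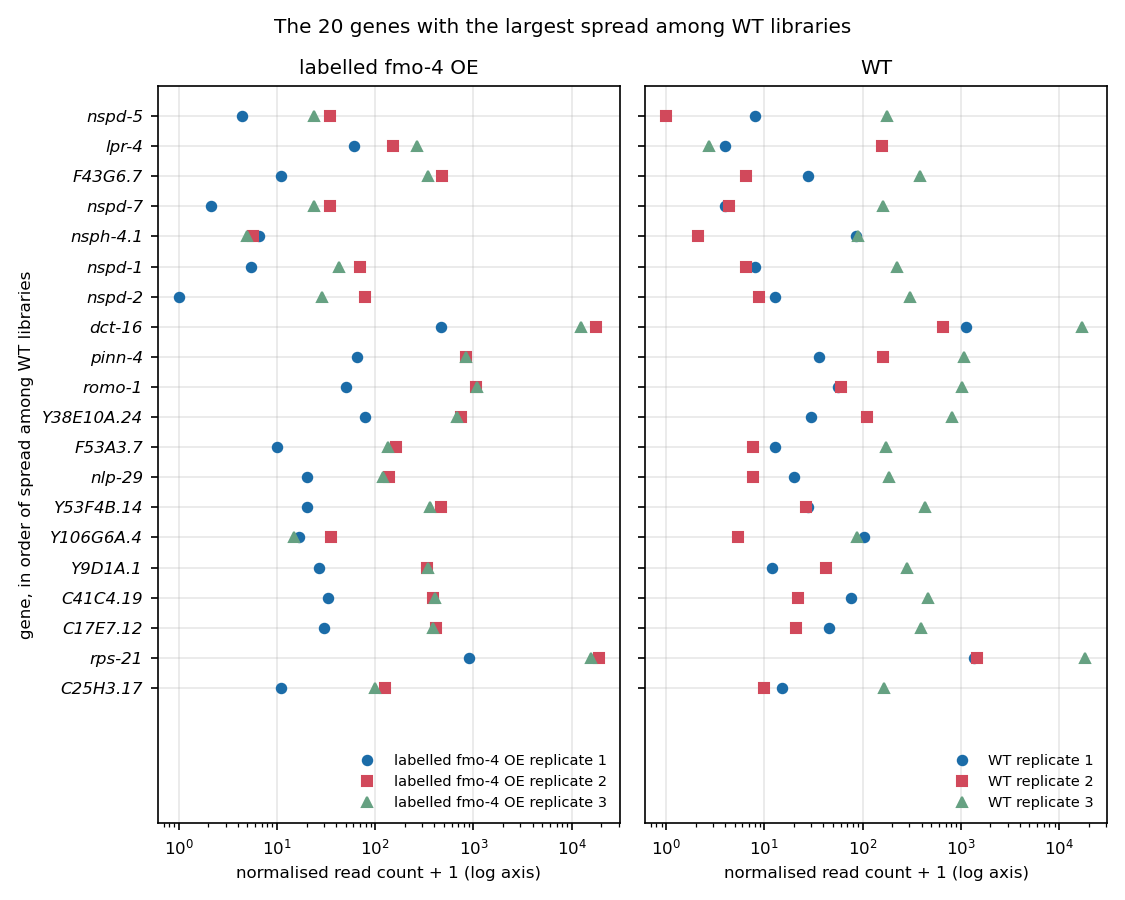
Normalised read count plus 1 on a log axis for the 20 genes with the largest SD of log2 CPM among WT, in libraries with the *fmo-4* OE label (left) and in WT (right). WT replicate 3 is the highest WT library for most genes, among WT *lpr-4* is high in replicate 2 and *nsph-4.1* and Y106G6A.4 are low in it, and the libraries with the *fmo-4* OE label lie above WT replicates 1 and 3 for *lpr-4* and below them for the other 2 genes.

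WT replicate 2 was set apart by low sperm transcripts. Of the 108 genes low in it, 30 were in the sperm lists, which hold 45 of the 9979 genes with enough reads. A 4-fold range was found for 34 of these 45 sperm genes, against the 3.39% of all genes. Some of the 45, such as *nspd-5*, had enough reads through 1 library alone. *nsph-4.1*, a member of a nematode-specific family, had 5, 5 and 4 reads in libraries with the *fmo-4* OE label, against 85, 1 and 102 reads in WT. Y106G6A.4 had 14, 36 and 14 reads in libraries with the *fmo-4* OE label, against 102, 4 and 100 reads in WT. *msp-31* had 144, 135 and 141 reads in libraries with the *fmo-4* OE label, against 748, 114 and 786 reads in WT. *ssp-10*, a relative of the msp genes, had 58, 69 and 51 reads in libraries with the *fmo-4* OE label, against 411, 50 and 231 reads in WT. In these genes WT replicates 1 and 3 lay above every library with the *fmo-4* OE label, and WT replicate 2 did not. The sperm gene *ssq-1* (619, 54 and 1031 reads in WT, a 14.5-fold range) stood just outside the 20 genes with the largest spread, as did F43G6.10 (36, 12 and 313 reads in WT).

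Of the 36 genes high in WT replicate 2, 5 were cuticle collagens, against 49 of the 9979 genes with enough reads. Of the 11 genes of the epidermal matrix and molting list with enough reads, 7 had a 2-fold range (63.6%, against 16.1% of all genes). A 4-fold range was found for 2 of them (18.2%, against 3.39% of all genes), *noah-1* and *mlt-11*. This list held its largest share in WT replicate 2, with 0.0168%, against 0.0104% and 0.00725% in WT replicates 1 and 3. Its median deviations from the WT mean were -0.52, 0.73 and -0.32 on the log2 scale in WT replicates 1, 2 and 3. Its member *nhr-23* was highest by TPM in WT replicate 1, and the collagen list held its largest share in WT replicate 3. The lipocalin-related gene *lpr-4* had 54, 157 and 270 reads in libraries with the *fmo-4* OE label, against 3, 142 and 2 reads in WT. *noah-1* had 1742, 1999 and 2655 reads in libraries with the *fmo-4* OE label, against 453, 1557 and 398 reads in WT, a 4.98-fold range among WT. Further genes of this pattern, named after their values were seen, were the collagen genes *dpy-14*, *dpy-17*, *dpy-7* and *sqt-3*. *dpy-14* had 1188, 2796 and 3536 reads in libraries with the *fmo-4* OE label, against 169, 1586 and 395 reads in WT. *dpy-17* had 1544, 3672 and 4404 reads in libraries with the *fmo-4* OE label, against 281, 2081 and 696 reads in WT. *sqt-3* had 1096, 3346 and 4528 reads in libraries with the *fmo-4* OE label, against 239, 1485 and 502 reads in WT. The protease inhibitor gene *mlt-11*, needed for molting, had 526, 972 and 1730 reads in libraries with the *fmo-4* OE label, against 71, 568 and 158 reads in WT. No gene of this pattern was under 500 bases, and the median length was 1786 bases. These genes were picked for their values and do not stand for their lists.

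At the other end, most of the genes used as references for quantitative PCR varied little. The study's primers included a pair for Y45F10D.4 on chromosome IV, now named *iscu-1*, which encodes an iron-sulfur cluster scaffold protein. They are shown because this gene had the smallest range among the reference genes named below, and its place among all genes is not given. The bases are in lower case and from 5′ to 3′.
Y45F10D.4 forward: gtcgcttcaaatcagttcagc
Y45F10D.4 reverse: gttcttgtcaagtgatccgaca

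The range among WT by log2 CPM was 1.01-fold for *iscu-1* (Y45F10D.4), with 1307, 1171 and 1493 reads in libraries of unequal depth. It was 1.19-fold for the peroxisomal transporter gene *pmp-3*, 1.16-fold for the RNA polymerase II gene *ama-1*, 1.26-fold for the tubulin gene *tba-1* and 1.29-fold for *eif-3.C*. *act-1*, often used as a reference, had a range of 3.51-fold, with 125, 77.1 and 221 TPM. By level per length, *iscu-1* had 170, 170 and 138 TPM, lowest in WT replicate 3.

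The WT libraries were then set beside the rest of the series. None of the 25 most abundant genes passed an adjusted p-value of 0.05 in edgeR's quasi-likelihood test of *fmo-4* OE against WT, against 0.0447% of all 13413 genes tested, and 0 passed unadjusted, against 7.34% of all genes, or with DESeq2, against 0.927%. Their adjusted p-values were 0.884 to 0.9995. *vit-2* had 3302, 3441 and 3683 TPM in libraries with the *fmo-4* OE label, against 4081, 4400 and 4061 TPM in WT, with no overlap in level per length. In normalised counts the groups overlapped, with 226618, 292384 and 300171 in libraries with the *fmo-4* OE label, against 283636, 305136 and 345689 in WT (log2 fold change of *vit-2* -0.23, edgeR adjusted p = 0.884). The 6 vitellogenin genes held 1.25% ± 0.05 of transcripts in libraries with the *fmo-4* OE label, against 1.51% ± 0.17 in WT (exact two-sided permutation test, p = 0.1, adjusted p = 0.775 over the 31 lists). This p is the smallest that 3 against 3 libraries can give. Of the 31 lists, 4 did not overlap between the groups, against 11% of single genes. Chaperones (1.15% ± 0.04 in libraries with the *fmo-4* OE label, against 1.08% ± 0.03 in WT) and epidermal matrix and molting genes (0.0187% ± 0.003, against 0.0115% ± 0.005 in WT) lay above WT, and vitellogenins and the few reads of male genes lay below. For the matrix and molting genes the gap was narrow, with 0.01684% in replicate 1 labelled *fmo-4* OE, against 0.01679% in WT replicate 2.

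Over all genes, 6 passed the adjusted p-value in edgeR. Leaving out WT replicate 2 gave 131 such genes, and leaving out WT replicate 1 gave 0. Of 27 msp genes tested, 0 passed the adjusted p-value. In libraries with the *fmo-4* OE label, 23 were lower at an unadjusted p-value under 0.05, against 3.01% of all genes. With DESeq2, 13 were lower at an adjusted p-value under 0.05, against 68 of 13486 genes. The msp list held 0.0278% ± 0.004 of transcripts in libraries with the *fmo-4* OE label, against 0.105% ± 0.067 in WT, with WT replicate 2 at 0.0308% (exact two-sided permutation test, p = 0.2, adjusted p = 0.775). Of 14 epidermal matrix and molting genes tested, 0 passed the adjusted p-value in edgeR or with DESeq2, and 6 were higher unadjusted, against 4.32% of all genes.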

How the data were processed

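Whole day 1 adults were measured by poly-T selected RNA-seq in 3 WT and 3 *fmo-4* OE libraries. The authors deposited read counts per gene without normalization and FPKM values, and FPKM was checked to equal the count over the deposited gene length times 1 constant per library (largest relative deviation 1.0e-14). The submitters' processing notes name fastp, HISAT2, StringTie and featureCounts. The build, annotation, versions and strand setting are not given in the sources used here. Gene lengths and coordinates are as deposited. Deposited columns of the authors' own fold changes and p-values for *fmo-4* OE against WT were not used, nor were 60 columns of other libraries. The table held no gene with fewer than 2 reads in total.

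Of 20138 genes, 19870 were matched to a WormBase identifier. A gene name table named 18797 genes, RefSeq (WBcel235) named a further 1025, and 316 stayed without a name. For 55 rows that shared a symbol, the RefSeq symbol of their own locus tag was used. List names with no match among the genes were left out. TPM was computed from counts and deposited lengths in Python 3.11.15. In R 4.3.3, edgeR 4.0.16 gave log2 CPM (TMM, prior count 2) and the quasi-likelihood test of *fmo-4* OE over WT with filterByExpr, adjusted by Benjamini-Hochberg over 13413 genes. List shares were compared with exact permutation tests. The spread used genes with a mean WT normalised count of at least 50, and the fold range is the highest over the lowest WT library by log2 CPM with prior count 2. P-values weigh the difference between the 2 labels against the spread between these samples. The spread among WT libraries was described without a test. Errors from 3 libraries cover counting and replicate error together.

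The 3 WT libraries, the 31 gene lists and the tests were chosen with earlier results of these data known. Named genes were the 25 most abundant in WT, the 20 with the largest SD of log2 CPM among WT, up to 4 most abundant members of each list, the qPCR reference genes (1 of them is not reported here) and *fmo-1* to *fmo-5*, and all other genes were named after their values were seen. Alternatives were RLE factors (DESeq2 1.42.0 as another test), no TMM factors, prior count 0.5, minimum means of 10 and 200, read shares, protein-coding genes only, no filter, a replicate block and leaving out each library. The scripts were tested on simulated data.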

Additional observations from a re-analysis of the deposited data

How the results depend on the processing

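The count of 6 genes called between *fmo-4* OE and WT was 10 with no filter beyond 1 count in total, 125 with DESeq2, and 0 to 131 when each library was left out in turn, with 131 without WT replicate 2 and 0 without WT replicate 1. With replicate number as a block, 5 genes were called. Deviations of same-numbered libraries from their group means correlated at 0.43, -0.31 and 0.36, and those of other pairs at -0.58 to 0.51. Deviations from a mean of 3 libraries are tied to each other, so these values cannot decide whether the numbers pair the samples. The 4 lists without overlap became 8 by share of read counts, and 5 to 8 when a WT library was left out. The 338 genes with a 4-fold range became 852 at a minimum mean of 10 and 143 at 200. They were 129 to 234 when a WT library was left out, where a lower count follows from the measure. RLE factors, no factors and prior count 0.5 gave 339, 317 and 358. The share of the 100 most abundant genes was 24% by read counts and 28.3% to 30.2% when a WT library was left out. By read counts, 24 of the 31 list shares moved by more than their SD, since reads favour long genes. Prior count 0.5 moved 3 of the 20 largest fold ranges. Depth limits the genes with few reads: the 5000 genes after rank 10000 had a median of 15.3 reads. The cause of the other changes was not tested.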
